A study of Mus musculus with 4 samples.

Results

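Granins are acidic proteins of dense-core granules, the vesicles in which neuroendocrine cells store peptide hormones until a stimulus releases them. They help to pack the granule, and several are themselves cut into peptides. Prohormone convertases cut the stored precursors at pairs of basic residues, carboxypeptidase E trims the ends that remain, and the finished peptides are kept until secretion. Small cell lung cancer is a neuroendocrine tumour, and chromogranin A, the product of Chga, is one of the proteins by which pathologists know it.

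The account below covers 10 genes of this system: the granins Chga, Chgb, Scg2, Scg3, Scg5 and Vgf, the convertases Pcsk1 and Pcsk2, the carboxypeptidase gene Cpe, and Resp18, which encodes a protein of neuroendocrine secretory granules. They were chosen by name, and all 10 were found among the 17746 gene symbols of the deposited table. RNA came from lung tumours that arise in mice with floxed Rb1 and floxed Trp53, crossed with the GFP-LC3-RFP-LC3ΔG autophagy reporter, and every group carried all of these alleles. Autophagy degrades the GFP-LC3 part of the probe, while the RFP part stays as a reference. Live, EpCAM-positive, RFP-positive cells were sorted by GFP, and 2 libraries were made from the positive and 2 from the negative cells. The age of the mice, the source of Cre, and whether separate animals stand behind the replicates are not stated in the labels or files used, so p-values measure only the spread between these libraries, which may be technical. The titles of the samples and the text on the series' design assign high autophagic flux to opposite groups, so the groups are named by GFP alone. A positive change means a higher level in GFP-negative cells, and paired values stand for replicate 1 and then replicate 2.

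The libraries held 51994432 to 73997175 counts. GFP-positive replicate 1 stood apart: 65.8% of the gene symbols had 0 counts there, against 0.727% to 11.5% in the other 3 libraries. Levels are CPM, counts scaled to the TMM-corrected library size, unless FPKM, which also divides by gene length, is named. At 0 counts, a limit of 3 counts equals 0.080 CPM in GFP-positive replicate 1, for counting error only. Of 8 neuroendocrine markers all had counts in the other 3 libraries, and 6 had counts in GFP-positive replicate 1, where Chga and Dll3, a Notch ligand, were at 0. For Epcam, the gene of the sort marker, GFP-positive cells gave 94.0 and 65.9 CPM and GFP-negative cells 255 and 88.9 CPM. In the same order, Trp53 had 20.4 and 62.6, then 13.1 and 4.37 CPM, and Rb1 had 0 and 4.06, then 8.996 and 0 CPM, totals that do not show the floxed exons. Blood cell RNA was present despite the sort, with Ptprc (CD45) at 0 and 79.9, then 22.0 and 18.4 CPM. In bulk RNA, fewer neuroendocrine cells and less of a transcript per cell cannot be told apart.

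None of the 10 genes passed edgeR's quasi-likelihood test, which called 16 of 16301 tested genes over the whole table (0.0982%), 1 higher (0.00613%) and 15 lower (0.092%) in GFP-negative cells. All 10 were tested, and all had an adjusted p of 1 (edgeR, Benjamini-Hochberg). At an unadjusted p under 0.05 there was 1 member, Scg2, higher in GFP-negative cells, against 3.1% of all tested genes in either direction and 2.34% higher, and DESeq2's Wald test and limma-voom called 0 members. The fitted log2 change was above 0 for 9 of the 10, against 68.1% of all tested genes, with a median of 1.38 beside 0.91 for all tested genes. The members' median was 1.67 under DESeq2 size factors and 1.89 under library totals, beside 1.12 and 1.33 for all tested genes, but under upper quartile scaling it was -0.36 beside 0.43. Without GFP-positive replicate 1 it was 1.15 beside 0.29. Without GFP-positive replicate 2 it was 7.60 beside 9.95, but there the group is the library with 65.8% of symbols at 0. Genes at 0 in it have no measurable fold, so these last medians give no size of change and cannot be compared. Over genes with counts in all 4 libraries, the 7 members had a median of 0.79 and all such genes -0.06. Without GFP-positive replicate 2, where the library with 65.8% of symbols at 0 stands alone for its group, edgeR called 5 of the 10 members higher (Chga, Chgb, Scg2, Scg5 and Pcsk2), beside 7601 of 16804 tested genes called in either direction (45.2%) and 7182 called higher (42.7%), so the members were near that background. Groups did not overlap for 2 members, Scg2 and Vgf, both higher in the GFP-negative libraries, where 25.2% of all tested genes lay higher without overlap and 6.63% lower.

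**Figure D1:**
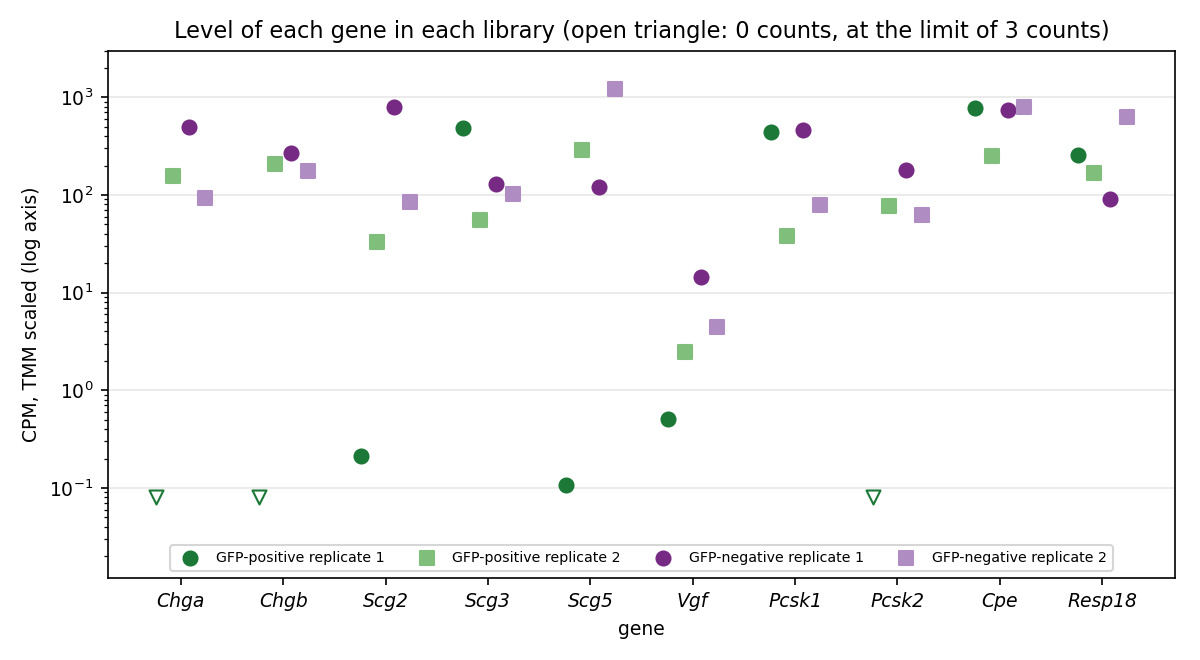
Level of each of the 10 genes in each library, in CPM after TMM scaling on a log axis, with 1 point per library; open triangles mark 0 counts, drawn at the limit of 3 counts. GFP-positive replicate 1 (dark green) is at or near the bottom for Chga, Chgb, Scg2, Scg5, Vgf and Pcsk2 and among the upper points for Scg3, Pcsk1 and Cpe.

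Several granin and convertase genes are known targets of the cyclic AMP pathway, whose factor CREB binds the 8-letter element TGACGTCA, a palindrome. RefSeq start sites (GRCm38.p6) were matched for 8 of the 10 genes, all but Vgf and Cpe. In the windows from 250 bases before to 50 bases after the start, 3 of these 8 genes held TGACGTCA, against 1.79% of 32851 such windows. The shorter TGACG, searched on both strands and contained in the full element, was in 7 of 8 windows, against 20.8% of all. CAGCTG, an E-box form and also a palindrome, was in 4 of 8 against 16.3%. TATAAA, searched on both strands, was in 1 of 8 against 13.6%. The 3 full elements are shown with 11 bases on each side, beside the Chga window with the short form, because these genes range from 0 to many counts in GFP-positive replicate 1. Capitals mark TGACGTCA, or TGACG where only that was found, and each line reads along the gene's own strand.
Chgb: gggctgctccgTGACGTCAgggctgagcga
Scg2: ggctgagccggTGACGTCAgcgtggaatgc
Pcsk1: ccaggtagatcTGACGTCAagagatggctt
Chga: gggcggtcctaTGACGtaatttcctgggtg
The windows lie at chr2:132781559-132781588 (plus strand) for Chgb, chr1:79440076-79440105 (minus strand) for Scg2, chr13:75089768-75089797 (plus strand) for Pcsk1 and chr12:102554886-102554915 (plus strand) for Chga. The elements begin 72, 68, 78 and 44 bases before the RefSeq start of Chgb, Scg2, Pcsk1 and Chga. GENCODE M21 places the starts of Chgb and Scg2 further upstream, so those 2 windows lie in an annotated exon there, and the Pcsk1 and Chga windows lie outside its exons. Among the genes with the full element, Chgb had 0 counts, Scg2 had 8 and Pcsk1 had 16427 in GFP-positive replicate 1, a library in which many genes were at 0. In GFP-positive replicate 2 they had 206, 33.2 and 37.9 CPM. In the GFP-negative libraries Chgb had 268 and 176, Scg2 787 and 84.1, and Pcsk1 466 and 78.6 CPM.

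The chromogranin genes were at 0 counts in the first GFP-positive library and at 94.1 to 494 CPM in the other 3. GFP-positive cells gave 0 and 156 CPM of Chga, and GFP-negative cells 494 and 94.1 CPM. The GFP-negative libraries thus lay on either side of GFP-positive replicate 2, and the fitted log2 change was 1.92 ± 2.14 (SE, n = 2 per group, edgeR adjusted p = 1). Chgb, the gene of chromogranin B (secretogranin 1), had 0 and 206 against 268 and 176 CPM, a log2 change of 1.11 ± 2.22. With the first GFP-positive library left out, these changes were 0.91 for Chga and 0.10 for Chgb, and without GFP-negative replicate 1 they were 0.27 and 0.77. Without GFP-positive replicate 2 the GFP-positive group is at 0 for both genes, so no fold can be given. Chga lies on chromosome 12 from 102554969 to 102565028 and Chgb on chromosome 2 from 132781278 to 132795079 (mm10, GENCODE M21).

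Scg2 had the largest fitted change of the 10 genes in the main test. It did not in limma-voom, with the replicate block, or without GFP-negative replicate 1 or GFP-positive replicate 2. Under upper quartile scaling it had the largest positive change (3.775), while Scg3, Pcsk1, Cpe and Resp18 had larger negative ones. The product of Scg2, secretogranin II, is the precursor of the peptide secretoneurin. GFP-positive cells gave 0.21 and 33.2 CPM of its RNA, and GFP-negative cells 787 and 84.1 CPM. Both GFP-negative libraries were above both GFP-positive ones, also under DESeq2 size factors, library totals, upper quartile scaling and FPKM. The log2 change was 4.70 ± 2.27 (SE, n = 2 per group, unadjusted p = 0.0386, edgeR adjusted p = 1), and it rested much on a single library: without GFP-negative replicate 1 it was 2.33. Taken alone, the replicate 2 libraries of the groups differed by 1.34 on the log2 scale, with GFP-negative above GFP-positive. That was less than the 3.23 by which the GFP-negative libraries differed from each other. Scg2 lies on chromosome 1 from 79434669 to 79440120.

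Vgf, whose product is cut into several bioactive peptides, had the lowest mean level of the 10 genes and was the lowest in every library but GFP-positive replicate 1. GFP-positive cells gave 0.51 and 2.46 CPM of its RNA, and GFP-negative cells 14.3 and 4.43 CPM. The groups did not overlap here, but they did under upper quartile scaling, where the log2 change was -1.82. Under TMM scaling it was 2.66 ± 4.73 (SE, n = 2 per group, edgeR adjusted p = 1).

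Scg5 encodes 7B2, the chaperone that the PC2 convertase needs in order to mature. GFP-positive cells gave 0.11 and 292 CPM of Scg5, and GFP-negative cells 120 and 1218 CPM, so the libraries of each group spread more widely than the groups differed (log2 change 2.196 ± 1.68). It was the only one of the 6 granins lower in GFP-negative replicate 1 than in replicate 2, by 3.34 on the log2 scale. Without GFP-negative replicate 2 its change was -0.29. Scg5 lies on chromosome 2 from 113776362 to 113829121, the chromosome that also carries Chgb and Pcsk2.

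Scg3 was the 1 member with a negative fitted change, and the sign turned with 1 library left out and on FPKM with the smaller pseudocounts. Secretogranin III binds chromogranin A and cholesterol at the granule membrane. GFP-positive cells gave 488 and 55.9 CPM of Scg3, and GFP-negative cells 129 and 103 CPM. GFP-positive replicate 1 was the highest of the 4 and GFP-positive replicate 2 the lowest. The log2 change was -1.23 ± 2.07 (SE, n = 2 per group, edgeR adjusted p = 1), against 1.05 with that first GFP-positive library left out. The gene model Gm37871 overlaps 688 bases of the span of Scg3, introns included, on the other strand. The library kit as described does not mark strand.

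The convertases parted in GFP-positive replicate 1. Pcsk1, the gene of PC1/3, had 438 and 37.9 CPM in GFP-positive cells and 466 and 78.6 CPM in GFP-negative cells. Replicate 1 was the higher library in each group, and the log2 change was 0.20 ± 1.88. It was 2.84 without GFP-positive replicate 1 and -1.60 without GFP-negative replicate 1, neither of which passed. Pcsk2, the gene of PC2, had 0 and 77.6 against 180 and 62.9 CPM, a log2 change of 1.65 ± 2.94, and 0.64 without GFP-positive replicate 1.

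Within a library the ratio of the convertases does not depend on scaling between libraries. Per length, in FPKM, Pcsk1 was 0.690 times Pcsk2 in GFP-positive replicate 2, and 3.66 and 1.77 times in the GFP-negative libraries. In GFP-positive replicate 1, Pcsk1 had 50.5 FPKM and Pcsk2 0 counts. The ratio of Scg5 to its partner Pcsk2 ranged more widely, at 19.0 in GFP-positive replicate 2, and at 3.37 and 97.7 in the GFP-negative libraries. The antisense gene Pcsk2os1 overlaps 1682 bases of the span of Pcsk2, introns included, and Pcsk2os2 overlaps 48383 bases. That span is 270130 bases long, with 4723 exonic bases in the longest transcript. Overlap of exons was not examined, so whether any Pcsk2 reads belong to them is not known.

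Cpe had the smallest standard error of the 10 genes. Carboxypeptidase E removes basic residues from the ends of cut peptides and has also been described as a sorting receptor of prohormones. GFP-positive cells gave 784 and 249 CPM of Cpe, and GFP-negative cells 747 and 794 CPM. GFP-positive replicate 2 was below the other 3, and the log2 change was 0.58 ± 1.37 (SE, n = 2 per group, edgeR adjusted p = 1). In FPKM, which carries no TMM scaling, and under library totals the groups did not overlap, with 194 and 77.4 FPKM, then 387 and 253 FPKM. Cpe ranked among the top 0.603% to 4.7% of gene symbols by FPKM in the 4 libraries.

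GFP-positive cells gave 257 and 167 CPM of Resp18, and GFP-negative cells 90.6 and 633 CPM. The GFP-negative libraries were the lowest and the highest of the 4. The log2 change was 0.77 ± 1.82 (SE, edgeR adjusted p = 1, n = 2 per group) and was -1.16 without GFP-negative replicate 2. An antisense gene, Gm28902, overlaps 3048 bases of the span of Resp18, introns included.

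**Figure D2:**
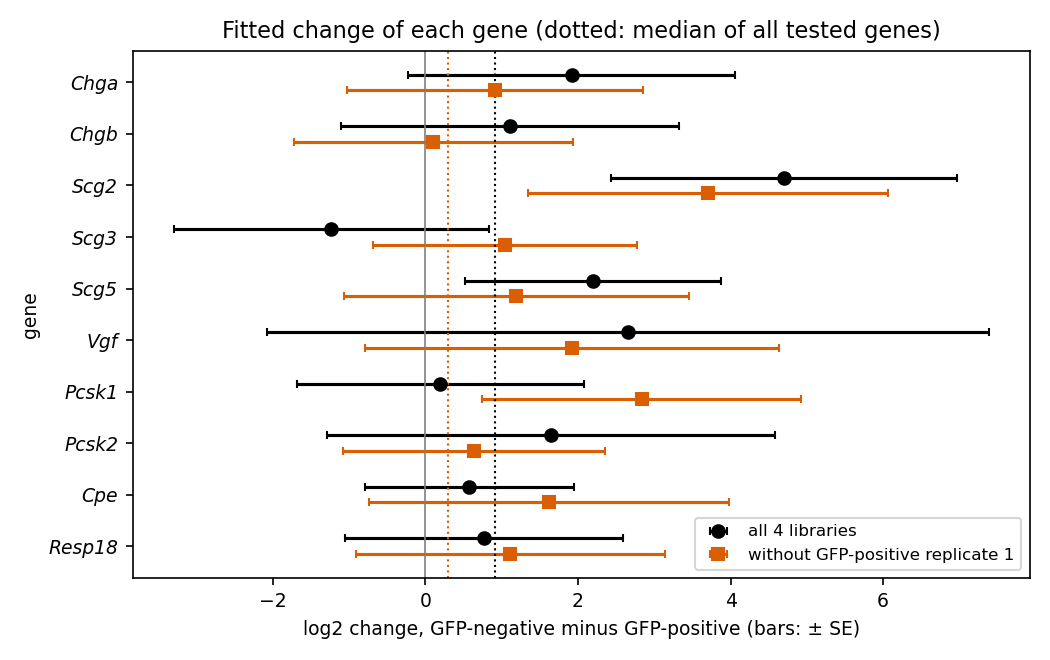
Fitted log2 change of each gene, GFP-negative minus GFP-positive, with bars of 1 SE, from all 4 libraries (black) and without GFP-positive replicate 1 (orange); dotted lines are the medians of all tested genes, 0.91 and 0.29. Scg3 moves from -1.23 to 1.05 and Pcsk1 from 0.20 to 2.84 when that library is left out.

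GFP-positive replicate 1 split the members sharply. Cpe, Scg3, Pcsk1 and Resp18 had 9636 to 29398 counts there, and ranked in the top 1.9% to 7.83% of gene symbols by FPKM. Chga, Chgb and Pcsk2 had 0 counts, Scg5 had 4, Scg2 had 8 and Vgf had 19. Such losses were common in that library. Of 4602 gene symbols with 1000 counts or more in each of the other 3 libraries, 38.1% had 0 counts in it and 54.0% had fewer than 20. Of the 9 members in that set, 3 (33.3%) had 0 and 5 (55.6%) had fewer than 20, so the members' losses were near the background. The libraries were amplified by PCR from very little RNA.

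The GFP-negative libraries also differed from each other by gene. Replicate 1 was above replicate 2 for Scg2 by 3.23, for Pcsk1 by 2.57, for Chga by 2.39, for Vgf by 1.69 and for Pcsk2 by 1.52 on the log2 scale (log2 CPM with a prior count of 2). It was below replicate 2 for Scg5 by 3.34 and for Resp18 by 2.80. For Chgb (0.61), Scg3 (0.32) and Cpe (-0.09) the difference was under 1. The interquartile range of all tested genes ran from -1.21 to 2.13 in the same difference, and 5 of the 10 members lay outside it, the same share as for all genes. GFP-positive replicate 2 and GFP-negative replicate 2 lie in different groups. The first minus the second ran from -2.06 (Scg5) to 0.73 (Chga) over the 10 members, with a median of -0.97. All tested genes had a median of 0.12 in that difference and an interquartile range of -0.90 to 1.49.

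**Figure D3:**
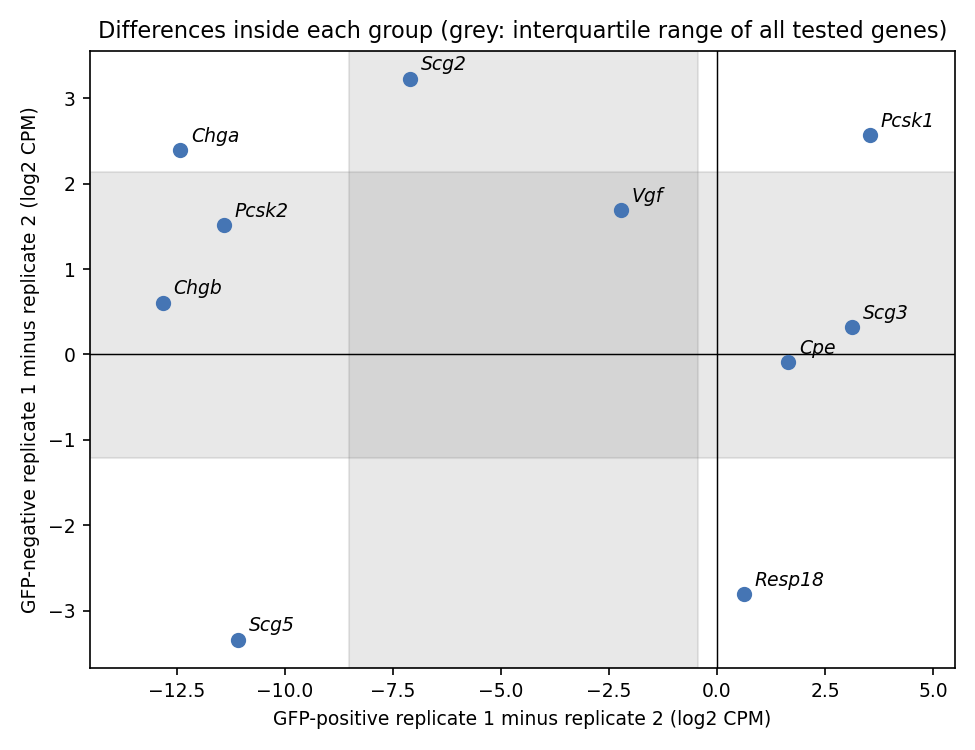
Difference between the 2 libraries of each group for the 10 genes, in log2 CPM with a prior count of 2; the x axis is GFP-positive and the y axis GFP-negative, each replicate 1 minus replicate 2, and grey bands hold the interquartile range of all tested genes. Chga, Chgb, Pcsk2 and Scg5 lie far to the left because of 0 to 4 counts in GFP-positive replicate 1, and Scg5 and Resp18 lie lowest.

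Summed over the 10 genes, both GFP-negative libraries held more of this RNA than both GFP-positive ones. The members took 0.142% and 0.120% of all counts from GFP-positive cells and 0.506% and 0.310% from GFP-negative cells. The 6 granins alone took 0.0353% and 0.0704% against 0.278% and 0.160%. For Pcsk1, Pcsk2 and Cpe together the shares were 0.0881% and 0.0344% against 0.214% and 0.0894%. GFP-positive replicate 1 and GFP-negative replicate 2 were almost level in that share. In CPM, after TMM scaling, all 10 genes summed to 1967 and 1277 against 3298 and 3248. Pcsk1, Pcsk2 and Cpe then summed to 1221 and 364 against 1394 and 936, with GFP-positive replicate 1 above GFP-negative replicate 2. These sums are a description and were not tested, since a few abundant genes make them up.

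Different genes made up the sum in each library. Of the summed FPKM of the members, Cpe and Resp18 took 37.3% and 30.9% in GFP-positive replicate 1, with 22.1% for Scg3. In GFP-positive replicate 2, Scg5 led with 29.7%, followed by Resp18 with 25.8%. GFP-negative replicate 1 was led by Scg2 with 26.1% and Cpe with 23.9%, and Chga took 14.96%. In GFP-negative replicate 2, Scg5 took 41.1% and Resp18 32.5%, and Chga took 1.81%. Scg5 and Resp18 thus led in the second library of each group.

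**Figure D4:**
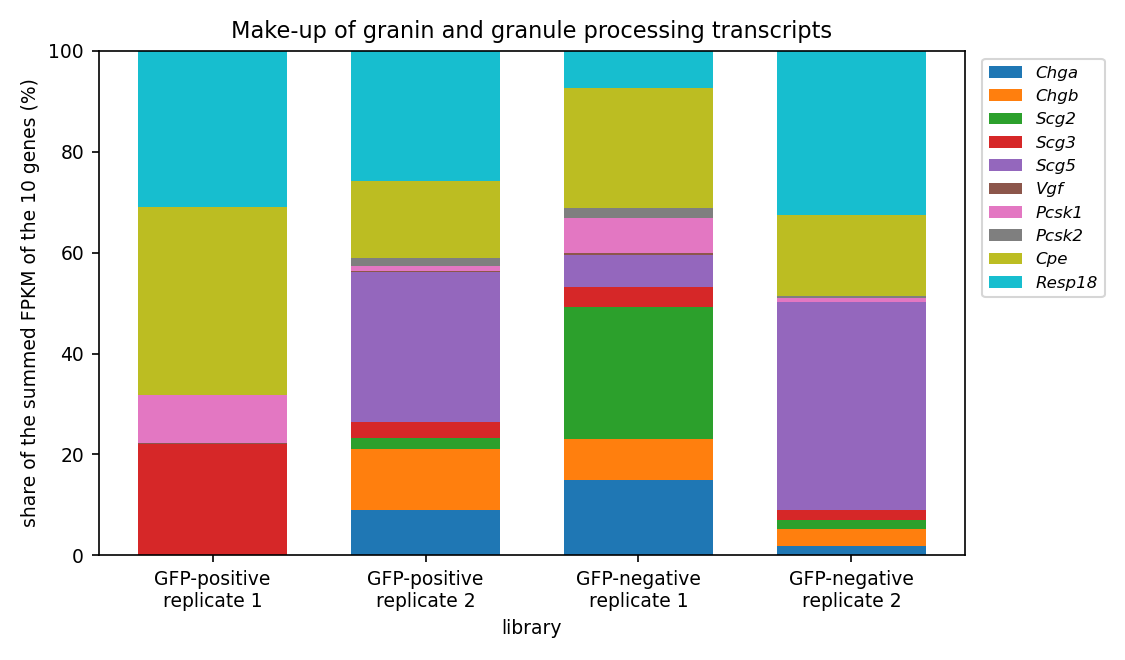
Share of each gene in the summed FPKM of the 10 genes, in percent, 1 stacked bar per library. Scg5 and Resp18 together fill more than any other pair in both replicate 2 libraries, Scg2 is large only in GFP-negative replicate 1, and Chga, Chgb and Pcsk2 are missing from GFP-positive replicate 1.

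Other genes of dense-core granules were also not called by edgeR. Of 34 measured genes of granule formation, amidation, transport and release, edgeR called 0, with 0 at an unadjusted p under 0.05, and 27 had a fitted change above 0 (median 1.47). Pam, the enzyme that amidates peptide ends, had 111 and 16.1 CPM in GFP-positive cells and 83.5 and 43.6 CPM in GFP-negative cells, and is named with its values known. The 3 with the smallest p were Rab27b, a GTPase of granule docking, Atp6ap1, an accessory subunit of the proton pump, and Slc18a2, a vesicular monoamine transporter. Rab27b had 20.3 and 5.51 CPM in GFP-negative cells and 0 counts in both other libraries. DESeq2's Wald test called it (DESeq2 adjusted p = 0.0462), among 51 genes that it called higher of 16301 tested. Atp6ap1 had 1694 and 634 against 148 and 283 CPM, and Slc18a2 had 0 and 0.063 against 4.50 and 3.02 CPM. The groups did not overlap for these 3 genes, and over the list they lay higher without overlap for 9 of 34 and lower for 2, near the 25.2% and 6.63% of all tested genes.

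Of 18 tested peptide precursors, the cargo on which the convertases and Cpe act, edgeR called 0, with 0 at an unadjusted p under 0.05. Fitted changes were above 0 for 15, with a median of 1.96. GFP-negative libraries lay higher without overlap for 7 of the 18 and lower for 0, against 25.2% and 6.63% of all tested genes. In GFP-positive replicate 1 only Calca, the calcitonin and CGRP gene, had counts among the 19 precursors in the table. Calca had 3073 and 350 CPM in GFP-positive cells and 2744 and 489 CPM in GFP-negative cells, a log2 change of -0.08 ± 0.97. It made up most of the sum of the 19 precursors, which was 3073 and 459 against 2840 and 723 CPM. Tac1, Nppa and Iapp, the precursor genes of substance P, atrial natriuretic peptide and amylin, had the smallest p. Each had 0 counts in both GFP-positive libraries, with 1.37 and 3.24 CPM for Tac1, 0.097 and 6.22 CPM for Nppa and 26.2 and 6.56 CPM for Iapp in the GFP-negative ones. DESeq2's Wald test called Iapp (DESeq2 adjusted p = 0.041), also among the 51 of 16301 tested genes that it called higher. Limma-voom called none of the 18.

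The gene groups most like the granins also had 0 genes called by edgeR and mostly positive fitted changes. A list of 21 synaptic genes held those of synaptic vesicles and SNARE complexes and the stathmin genes Stmn2 and Stmn3. Of these 21, 0 were called by edgeR, with 0 at an unadjusted p under 0.05 and 0 by DESeq2 or limma-voom. Fitted changes were above 0 for 19 (median 1.83). Snap25, a SNARE protein of exocytosis, had 0.24 and 49.1 against 208 and 198 CPM, Syt4 was at 0 in the GFP-positive cells and at 8.13 and 2.31 CPM in the others, and Sv2b, also at 0 in those, had 2.097 and 2.46 CPM. Among 15 transcription factors, 13 of the neuroendocrine programme and the repressors Rest and Hes1, 0 were called by these 3 tools, with 0 at an unadjusted edgeR p under 0.05, and 13 were above 0 (median 1.495). Without these repressors, a division made after the values were seen, 12 of 13 were above 0 (median 1.57), and the fitted change was 0.15 for Rest and -1.83 for Hes1. Insm1, a zinc-finger factor of neuroendocrine differentiation, had 0.11 and 2.56 against 58.4 and 9.18 CPM, and Foxa1, a pioneer factor, had 0 and 11.8 against 219 and 8.29 CPM. Insm1 and Foxa1 had their highest level in GFP-negative replicate 1, as Chga, Chgb, Scg2, Vgf, Pcsk1 and Pcsk2 did, while Scg5, Cpe and Resp18 were highest in GFP-negative replicate 2. GFP-negative libraries lay higher without overlap for 10 of the 21 synaptic genes and 6 of the 15 factors. That compares with 2 of the 10 members and 25.2% of all tested genes. They lay lower for 0 and 1, against 6.63% of all tested genes. No difference between these gene groups and the granins was tested. Genes at 0 in both libraries of a group (1 granule, 6 precursor, 2 synaptic and 906 of all tested genes) have no measurable fold, and with each set to its limit of 3 counts per library the medians above and that of all tested genes were the same to 2 decimals.

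Genes with the nearest level pattern were sought for Resp18 and Cpe, the members of largest mean FPKM, among 10197 other genes with a mean of 5 CPM or more over 4 libraries. Nearest to Cpe were Ccn3, which encodes a secreted matricellular protein, Aldoc, which encodes a glycolytic aldolase, and the gene model Gm6169, with root mean square log2 differences of 0.037, 0.11 and 0.18. Nearest to Resp18 were Acd, a gene of the telomere shelterin complex, Pdrg1 and Pfdn4, a prefoldin subunit gene, at 0.11, 0.16 and 0.17. Over only 4 libraries many genes can be this near. Among the members themselves Chga, Chgb and Pcsk2 were nearest one another, at 0.54 to 0.65, and Cpe lay nearest Scg3, at 0.85. Chga, Chgb and Pcsk2 are the members at 0 counts in GFP-positive replicate 1, where many genes were at 0. Cpe and Scg3 had 29398 and 18320 counts there. These distances thus largely follow that library, and shared regulation was not tested.

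RNA of other cell types also differed between the libraries. The summed level of 11 macrophage markers was 112326 and 47689 CPM in GFP-positive cells and 1082 and 16709 CPM in GFP-negative cells, with counts for all 11 in every library. The 6 erythroid genes summed to 45562 and 14336 against 1573 and 5395 CPM, again with none at 0. The 4 hepatocyte genes summed to 27262 and 159 against 23.5 and 319 CPM, with Alb at 0 in GFP-positive replicate 2 and Cyp2e1 at 0 in both GFP-negative libraries. Outside GFP-positive replicate 1 that sum was nearly all Ttr, the transthyretin gene, with 155, 23.0 and 318 CPM. The 9 B and plasma cell genes summed to 1890 and 6701 against 3178 and 21444 CPM, and 7 of them, among them Cd79a, Cd79b and Ms4a1, were at 0 in GFP-positive replicate 1. GFP-negative replicate 1 had the lowest macrophage, erythroid and hepatocyte sums and, of the 10 members, the highest level of 6 (Chga, Chgb, Scg2, Vgf, Pcsk1 and Pcsk2) and the lowest of Resp18. The share of all tested genes with their highest level in that library was not counted. GFP-positive replicate 1 had the highest of these 3 sums and the highest Scg3. Cpe, Pcsk1 and Resp18 were second highest there, and Chga, Chgb, Scg2, Scg5, Vgf and Pcsk2 were lowest. The 4 airway secretory genes summed to 3481 and 4742 against 364 and 7192 CPM and 5 alveolar type 2 genes to 147 and 195 against 95.7 and 2400 CPM. Lists of T and NK cells, mast cells and neutrophils, endothelium, fibroblasts and alveolar type 1 cells summed to at most 116, 194, 396, 76.6 and 123 CPM in any library. The part of these cells in the members' levels was not tested.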

How the data were processed

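RNA was sequenced from sorted mouse tumour cells in 4 libraries. Per the labels' protocols, cDNA was made from very little RNA by oligo(dT) priming and template switching, then amplified by PCR and sequenced in paired reads. The authors deposited whole-number counts per gene symbol and library, per the file headers. The authors also deposited FPKM per library, per the file headers. The submitters' processing notes name cutadapt 1.9, HISAT2 2.2.1, StringTie 2.1.6, DESeq2, edgeR and the build mm10; the counter, the annotation and the treatment of shared reads are not stated there. Groups were taken from the sample descriptions.

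The count analysis used edgeR 4.0.16 in R 4.3.3: filterByExpr (minimum count 10, 16301 genes kept), TMM scaling (factors 0.722 and 0.944 for GFP-positive, 1.54 and 0.956 for GFP-negative), glmQLFit and glmQLFTest with the group as the only term, Benjamini-Hochberg adjustment over all tested genes and a threshold of 0.05. SE is |log2 change| over the root of F, from a spread moderated across genes. No exact permutation test of 2 against 2 libraries could pass that threshold, so none was run. The scripts were tested on simulated counts with a smaller spread than here and no library with most genes at 0. In these data edgeR's common dispersion was 3.67. The simulation therefore does not show which changes could be detected here.

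The members, lists and motifs were chosen with earlier results of these data known. The text names all members, 4 label checks, in each wider list the called genes or else the 3 with the smallest p, and the 3 genes nearest in pattern to the 2 members of largest mean FPKM; other names were chosen after their values were seen. Some genes that these rules name are not reported here. Of the named list genes, 34 of 36 granule, 19 of 30 peptide precursor, 21 of 22 synaptic and 15 of 19 transcription factor symbols were in the table. Alternatives were a replicate block, other filters, DESeq2 size factors, upper quartile scaling, library totals, DESeq2's Wald test (1.42.0), limma-voom (limma 3.58.1), limma on log2 FPKM (pseudocount 0.1, 1 or 5), a fit restricted to genes present in all 4 libraries, and leaving out each library. Limma on log2 FPKM was first run with no mean-variance trend, as planned, and called 0 genes; the same fits with the trend were added after seeing this.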

Additional observations from a re-analysis of the deposited data

How the results depend on the processing

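No member was called under 18 of the 19 alternatives; without GFP-positive replicate 2, where the group is the library with most genes at 0 and its spread is taken from the GFP-negative pair, 5 were called higher (Chga, Chgb, Scg2, Scg5 and Pcsk2), beside 42.7% of all tested genes called higher in that fit. The counts of members called thus ranged from 0 to 5 when each library was left out, and those of the granule, peptide precursor, synaptic and transcription factor lists from 0 to 18, 0 to 10, 0 to 15 and 0 to 11, with each highest count from that same fit. DESeq2's Wald test called 1 granule and 1 precursor gene. Genes called over the whole table, 16 in the main test, numbered 0 under upper quartile scaling, 63 in DESeq2's Wald test, 4 in limma-voom, 0 in limma on FPKM at each pseudocount (0.1, 1 and 5; 273, 408 and 506 at an unadjusted p under 0.05), 42, 23 and 11 in the same 3 fits with a mean-variance trend, which was chosen after seeing those counts of 0, 5 among genes with counts in all 4 libraries, and 1 to 7601 when each library was left out. The members' median log2 change was -0.36 under upper quartile scaling (0.43 for all tested genes). When each library was left out, it ran from 0.73 to 7.60 (0.29 to 9.95 for all tested genes). Both upper ends come from the fit without GFP-positive replicate 2. Most genes are at 0 in that group there and have no measurable fold, so these ends give no size of change. Under the other alternatives the members' median stayed positive. Signs turned under upper quartile scaling for Cpe (-5.97), Pcsk1 (-6.73), Resp18 (-5.36) and Vgf (-1.82), in limma-voom for Resp18 (-0.17), and on FPKM for Scg3 (0.029 with a pseudocount of 0.1, 0.016 with 1, with and without the trend). They turned without GFP-positive replicate 1 for Scg3 (1.05), without GFP-positive replicate 2 for Cpe (-0.025) and Pcsk1 (-0.68), without GFP-negative replicate 1 for Pcsk1 (-1.60), and without GFP-negative replicate 2 for Resp18 (-1.16) and Scg5 (-0.29). The cause of these turns was not tested. When each library was left out, the changes ran from -0.025 to 1.62 for Cpe, -1.60 to 2.84 for Pcsk1, -1.16 to 1.58 for Resp18, -2.08 to 1.05 for Scg3, -0.29 to 12.59 for Scg5, 2.33 to 10.99 for Scg2 and 1.57 to 4.21 for Vgf; they ran from 0.27 to 2.65 for Chga, 0.10 to 1.37 for Chgb and 0.64 to 2.199 for Pcsk2, leaving aside the fit without GFP-positive replicate 2, where these 3 are at 0 in that group and have no fold. Replicate numbers did not pair the libraries by any label, and the replicate 1 minus 2 differences of the groups correlated at -0.073 over tested genes. With the replicate block, 0 members and 21 genes in all were called, and the members' median was 4.41 beside 3.92 for all tested genes. In GFP-positive replicate 1, 0 to 19 counts leave the levels of 6 members poorly measured.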
